A study of Saccharomyces cerevisiae with 6 samples.

Results

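The proteasome is the protease that degrades ubiquitin-tagged proteins, and its genes were described here in budding yeast exposed to thorium, an actinide metal. The members are 34 genes taken by name from the array's platform annotation: 14 subunits of the core particle (SCL1, PRE1 to PRE10 and PUP1 to PUP3), 10 of the base and 8 of the lid of the regulatory particle, the transcriptional activator RPN4 and the maturation factor UMP1. They are 34 of 5365 named genes, and each had 1 probe. Thorium was added at 5 mM to exponentially growing Saccharomyces cerevisiae S288C in YPD at 25 °C for 2 h, and the untreated culture was kept in the same medium for the same time. PolyA RNA of treated cells carried Cy5 and that of untreated cells carried Cy3 on the same array, in 3 hybridizations from independent biological samples. A high and a low laser power scan were made of every array, so that 6 scans are 3 replicates, and the dyes were not exchanged. Values are log2 ratios. A value below 0 is likely less RNA in thorium, a direction taken from the order of the channels, and base 2 is assumed.

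In the core particle, rings of alpha subunits enclose rings of beta subunits, and the catalytic sites lie on PRE3, PUP1 and PRE2. The base holds the RPT ATPases, which unfold substrates, and the scaffold and ubiquitin-binding subunits RPN1, RPN2, RPN10 and RPN13, while the lid carries the deubiquitinase RPN11. In yeast Rpn4 activates most proteasome genes from a shared promoter element and is itself a short-lived substrate of the proteasome, so that subunit genes commonly move together.

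The scans gave values for 40.2% to 79.3% of 6912 probes, and having only 3 arrays limits the precision of every value. Replicate 1 stood apart: its scans correlated with those of the other replicates at r = 0.0399 to 0.25 over probes, against 0.526 to 0.567 between the scans of replicates 2 and 3. Over the genes tested, replicate 1 correlated with replicates 2 and 3 at 0.0949 and 0.0245 as deposited and at 0.317 and 0.252 after the section-centring described next, against 0.559 and 0.458 between replicates 2 and 3. Ratios also differed by place on the array. With the leading 3 digits of the probe number read as an array section of 36 spots, a reading inferred from the numbers, section explained 29.9% to 53.3% of the variance of a scan. Each member is therefore given also after section-centring, which subtracts the median of its section in that scan, and results are given without replicate 1 as well. Ratios against the same section share that median, and PRE6 with PRE9, RPT2 with RPT3, and PRE4 with RPN3 lay in the same section.

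Of the 34 members, 27 had a value in all 3 replicates. The other 7, namely PRE8, PUP1, PUP3, RPN2, RPN8, RPN10 and RPN4, had none in replicate 1, and whether having a value depended on signal was not tested. Most measured proteasome genes lay below 0 in thorium, by modest amounts: 25 of 27 had a mean below 0, and the median was -0.42, against -0.09 over the 3613 genes tested, 56.5% of which had a mean below 0. PRE4 and SCL1 were the exceptions. With replicates 1, 2 and 3 left out in turn, 19, 25 and 21 of 27 had a mean below 0. The share of all genes in these leave-outs was not counted. In every replicate 12 of 27 lay below 0 (23.2% of all genes), and 6 lay below -0.5 in every replicate (4.59% of all genes), namely PRE10, PRE3, RPN9, PRE5, RPT1 and RPN7. In replicates 1, 2 and 3 the members had medians of -0.38, -0.58 and -0.73, and all genes tested of -0.11, -0.12 and -0.05. With limma's moderated test and Benjamini-Hochberg adjustment over all 3613 genes, 0 members and 0 genes (0%) passed at 0.05, and the members' adjusted p ran from 0.271 to 0.984. At an unadjusted p under 0.05, 499 genes passed in either direction, and 10 members passed below 0, against 8.11% of all genes.

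**Figure D1:**
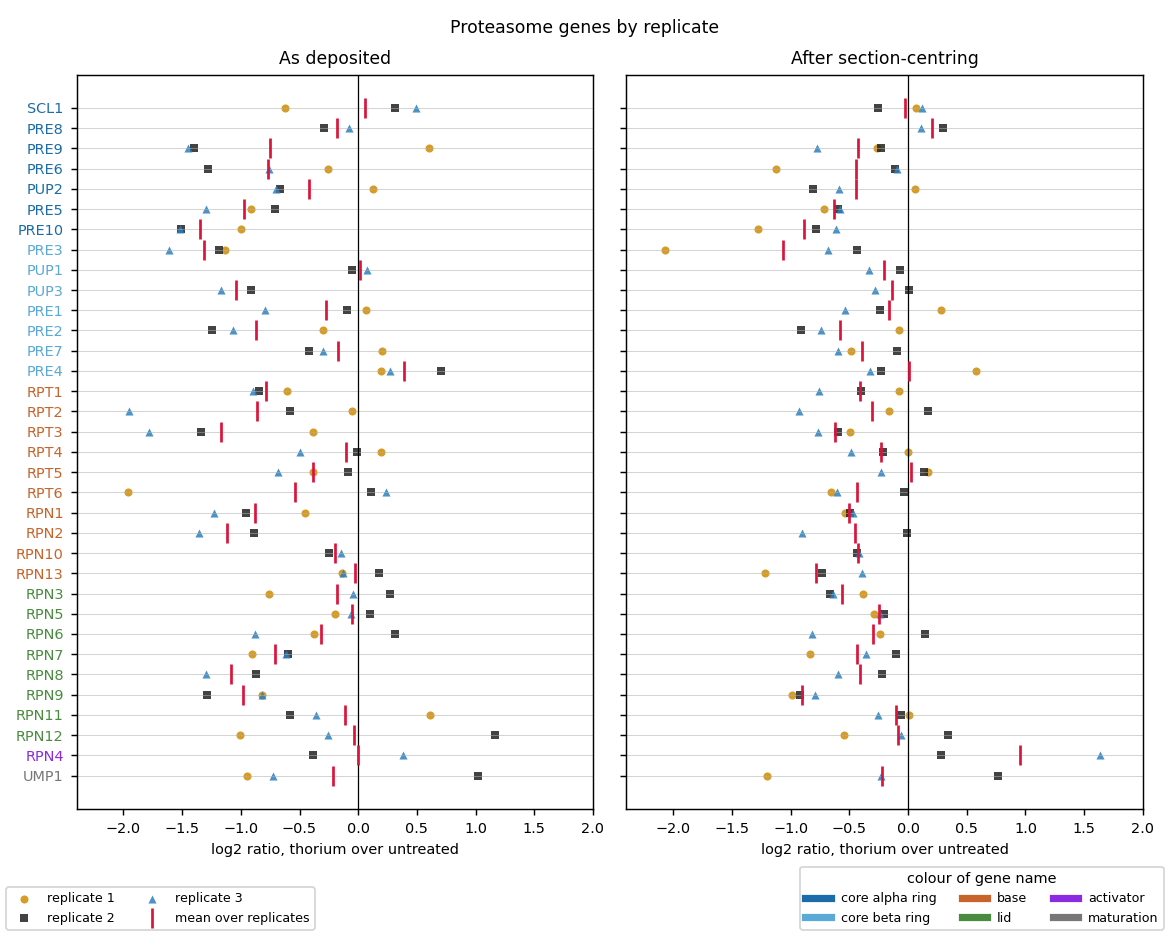
Log2 ratio of thorium over untreated (x axis) for each of the 34 proteasome genes (rows, coloured by complex) in replicates 1, 2 and 3, with the mean as a red bar, as deposited (left) and after section-centring (right). As deposited 25 of 27 genes with 3 replicates had a mean below 0, and after centring also 25; RPN4 stands at 0.00 on the left and at 0.95 on the right.

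Without replicate 1, 191 genes passed after adjustment, 81 above and 110 below 0, and 4 of 27 members passed below 0 (3.04% of all genes). These were PRE10 at -1.52 (adjusted p = 0.0327), RPT3 at -1.56 (adjusted p = 0.0327), PRE9 at -1.43 (adjusted p = 0.0360) and PRE3 at -1.40 (adjusted p = 0.0397), over 2 replicates each. That fit had 1 residual and 8.38 prior degrees of freedom, so its p-values rest mostly on the spread pooled over all genes. Over all 4790 genes with a value in replicates 2 and 3, which takes in all 34 members, 77 genes passed and 0 members did (0.668% of genes passed below 0), the lowest adjusted p of a member being 0.0513. After section-centring without replicate 1, 26 genes passed, 4 of them below 0 (0.111%), and the members' adjusted p ran from 0.108 to 0.922. Of all the fits run, PRE10, RPT3 and PRE9 passed only in that on the deposited values of genes with 3 replicates, with replicate 1 left out. PRE3 also passed after section-centring without replicate 3, at -1.25 (adjusted p = 0.0356), from centred values of -2.07 and -0.43, the first of which includes a scan left uncentred because its section held only 4 values. In that fit 141 of 3613 genes passed, 51 of them below 0, and 1 of 27 members.

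Of the core's alpha ring, whose subunits gate entry to the catalytic chamber, 5 of 6 members with 3 replicates had a mean below 0 (56.5% of all genes). PRE10, the alpha 7 subunit, read -1.0, -1.51 and -1.52 in replicates 1, 2 and 3. All 3 values were low, and their mean of -1.34 ± 0.30 (SD, n = 3; 95% interval -2.03 to -0.66; adjusted p = 0.271) is a ratio of 0.394, the 23rd lowest of 3613 genes. Its section lay at -0.45, and after centring PRE10 stood at -0.89 ± 0.35. PRE5, alpha 6, read -0.91, -0.71 and -1.29 (mean -0.97 ± 0.30; adjusted p = 0.293), and after centring its replicates came closer together, at -0.63 ± 0.08. PRE6, alpha 4, read -0.26, -1.28 and -0.76, so that replicate 1 was nearest to 0 and all 3 were below it. PRE9, alpha 3, the subunit of this ring that yeast can do without, read 0.60, -1.40 and -1.45, with replicate 1 on the other side of 0 from replicates 2 and 3. The section that PRE6 and PRE9 share lay at 0.87, -1.17 and -0.67 in the 3 replicates, above 0 in replicate 1 and below it in the others, as PRE9 did. After centring PRE9 read -0.27, -0.23 and -0.78, below 0 in each, and PRE6 -1.12, -0.11 and -0.10. PUP2, alpha 5, stood at -0.42 ± 0.47 as deposited and at -0.45 ± 0.45 centred. SCL1, alpha 1, was the highest of the ring at -0.62, 0.32 and 0.49, and its centred mean was -0.03 ± 0.20. PRE8, alpha 2, read -0.29 and -0.08 in replicates 2 and 3, and 0.30 and 0.11 after centring. The section of PRE8 held as few as 5 values in a scan, the minimum for centring.

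The beta ring held the widest range of the core, from PRE3 at -1.31 to PRE4 at 0.39. PRE3, beta 1, which carries the caspase-like site, read -1.13, -1.18 and -1.61, low in each replicate (mean -1.31 ± 0.26, n = 3; 95% interval -1.99 to -0.63; adjusted p = 0.271; ratio 0.403). Its section was at 1.08 in replicate 1 and at -0.75 and -0.93 in replicates 2 and 3, so that centring spread its replicates to -2.07, -0.43 and -0.69. The low power scan of replicate 1 is the one left uncentred, the minimum being 5 values. PRE2, beta 5, with the chymotrypsin-like site, read -0.30, -1.24 and -1.07 (mean -0.87 ± 0.50; adjusted p = 0.311), and its centred mean was -0.58 ± 0.44. PUP1, beta 2, with the trypsin-like site, had values of -0.05 and 0.08 in replicates 2 and 3, and of -0.07 and -0.34 centred. The 3 catalytic subunits thus stood at -1.31, -0.87 and 0.01. Among the non-catalytic subunits, PRE1 (beta 4) read 0.07, -0.09 and -0.80, PRE7 (beta 6) 0.20, -0.42 and -0.30, and PRE4 (beta 7) 0.20, 0.71 and 0.27. Centred, PRE1 stood at -0.16 ± 0.42 and PRE7 at -0.39 ± 0.27, with PRE7 below 0 in each replicate. PRE4 was above 0 in every replicate, in a section at 0.38, and at 0.01 ± 0.50 centred. PUP3, beta 3, read -0.92 and -1.17 in replicates 2 and 3, and its section lay at -0.91, leaving -0.14 ± 0.21 (SD, n = 2).

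Of the base, 8 of 8 members with 3 replicates had a mean below 0 (56.5% of all genes), 5 of them in every replicate (23.2% of all genes). Without replicate 1, RPT6 and RPN13 were above 0, at 0.17 and 0.023, and the others stayed below it. RPT3 read -0.38, -1.34 and -1.79, low in replicates 2 and 3 and nearer to 0 in replicate 1 (mean -1.17 ± 0.72, n = 3; 95% interval -2.02 to -0.32; adjusted p = 0.299). In replicate 1 its scans differed, at 0.10 with high and -0.86 with low power. RPT2, in the same section, read -0.05, -0.58 and -1.95, with replicate 3 far below the others. That section lay at 0.12, -0.75 and -1.02, and after centring RPT3 stood at -0.62 ± 0.14 and RPT2 at -0.31 ± 0.56. RPT1 read -0.61, -0.85 and -0.90, a narrow span (mean -0.78 ± 0.16; adjusted p = 0.305), and stood at -0.41 ± 0.34 centred. RPT4 at -0.11 ± 0.35 and RPT5 at -0.38 ± 0.30 were closer to 0, and RPT5, below 0 in every replicate as deposited, stood at 0.02 ± 0.22 centred. RPT4 stood at -0.24 ± 0.24 centred, below 0 in each replicate, with replicate 1 at -0.0046. RPT6 read -1.96, 0.11 and 0.23, so that its mean of -0.54 came from replicate 1 alone. Its section was at -1.30 in that replicate and at 0.14 and 0.84 in the others, and its centred values were -0.66, -0.03 and -0.61.

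RPN1, the scaffold of the base that docks ubiquitin-binding shuttle proteins, read -0.46, -0.96 and -1.23 (mean -0.88 ± 0.39; adjusted p = 0.299). Centred, its 3 replicates lay within a narrow span at -0.50 ± 0.04. RPN2, the other scaffold, read -0.89 and -1.36 in replicates 2 and 3, and -0.0087 and -0.90 centred, so that its mean moved from -1.12 to -0.46. Of the ubiquitin receptors, RPN10 read -0.25 and -0.14, and -0.43 in mean after centring. RPN13 was the highest of the base, at -0.13, 0.17 and -0.13. Its section was the highest of any member at 0.75, and relative to it RPN13 read -1.22, -0.74 and -0.39, among the 4 lowest centred means of the 34.

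Of the lid, 7 of 7 members with 3 replicates had a mean below 0 (56.5% of all genes), and 2, RPN9 and RPN7, were below 0 in every replicate, a share near the 23.2% of all genes. Without replicate 1, RPN3, RPN5 and RPN12 were above 0, at 0.11, 0.018 and 0.46, and the others stayed below it. RPN9, a structural subunit, read -0.82, -1.29 and -0.82 (mean -0.98 ± 0.27, n = 3; 95% interval -1.66 to -0.30; adjusted p = 0.291). Its section lay at 0.17, -0.37 and -0.03 in replicates 1, 2 and 3, and at -0.08 on average. The centred values of RPN9, -0.99, -0.92 and -0.79, differed little between replicates (mean -0.90 ± 0.10; adjusted p = 0.125, the lowest of any member after centring). RPN7 read -0.91, -0.60 and -0.62, and stood at -0.43 ± 0.37 centred. RPN6 read -0.38, 0.31 and -0.88, on both sides of 0, and stood at -0.30 ± 0.49 centred. RPN3 read -0.76, 0.27 and -0.04 in a section at -0.38, 0.94 and 0.59, and centred it lay below 0 throughout, at -0.56 ± 0.16. RPN12 was the highest of the lid and its replicates were far apart, at -1.01, 1.17 and -0.26. Its centred mean was -0.09 ± 0.44. RPN5 stood at -0.05 ± 0.15 and RPN11, the deubiquitinase, at -0.11 ± 0.63. Centred, RPN5 stood at -0.25 ± 0.04, below 0 in each replicate, and RPN11 at -0.10 ± 0.14. RPN8, the partner of RPN11, read -0.87 and -1.30 in replicates 2 and 3 and -0.22 and -0.59 centred.

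Core, base and lid were compared by their medians over members with 3 replicates, without a test. As deposited the core stood at -0.75 (11 members), the base at -0.66 (8) and the lid at -0.18 (7). In the core the alpha ring was at -0.76 and the beta ring at -0.27. Between core, base and lid these differences did not hold across replicates. The lid median was -0.76, 0.10 and -0.36 in replicates 1, 2 and 3, the core median -0.26, -0.71 and -0.80, and the base median -0.38, -0.33 and -0.79. Core minus lid was therefore 0.51, -0.81 and -0.43, with a mean of -0.24 ± 0.68 (SD, n = 3). Base minus lid was 0.38, -0.43 and -0.43 (mean -0.16 ± 0.47), and core minus base averaged -0.09 ± 0.26. Each of these means was smaller than its spread. Alpha minus beta ring was below 0 in each replicate, at -0.51, -0.57 and -0.23 (mean -0.44 ± 0.18).

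**Figure D2:**
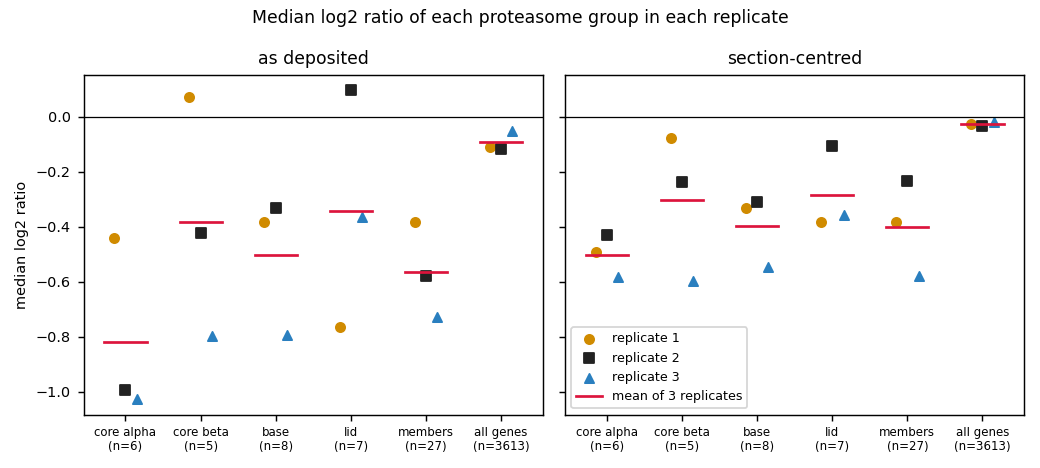
Median log2 ratio (y axis) over the genes of each proteasome group and over all genes tested, in replicates 1, 2 and 3, with the mean of the replicates as a red line, as deposited (left) and section-centred (right). As deposited the lid runs from -0.76 to 0.10 and its place relative to core and base changes with the replicate; after centring the group means lie between -0.50 and -0.28, all below that of all genes at -0.03.

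After section-centring the groups drew together, while the median of the members' means changed little. The medians became -0.44 for the core, -0.42 for the base and -0.30 for the lid, and -0.45 and -0.39 for the alpha and beta rings. The alpha ring was then below the beta ring by -0.42 and -0.19 in replicates 1 and 2, and above it by 0.01 in replicate 3. Over the 27 members the centred median was -0.43, against -0.04 over all genes, and 25 of 27 had a mean below 0 (54.1% of all genes). Below 0 in every replicate were 17 of 27 (24.4% of all genes), compared with 12 as deposited. At an unadjusted p under 0.05, 9 members lay below 0 (9.77% of all genes), PRE3, RPN9, PRE10, RPN13, PRE5, RPT3, PRE2, RPN3 and RPN1, and after adjustment 0 members and 0 genes (0%) passed, with 697 genes under an unadjusted p of 0.05. The members' centred medians were -0.38, -0.23 and -0.58 in replicates 1, 2 and 3, against -0.38, -0.58 and -0.73 as deposited. Members minus all genes, from the medians of each replicate, averaged -0.47 ± 0.20 as deposited and -0.37 ± 0.18 centred (SD, n = 3). The median SD of a member over its replicates was 0.46 as deposited and 0.35 centred.

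**Figure D3:**
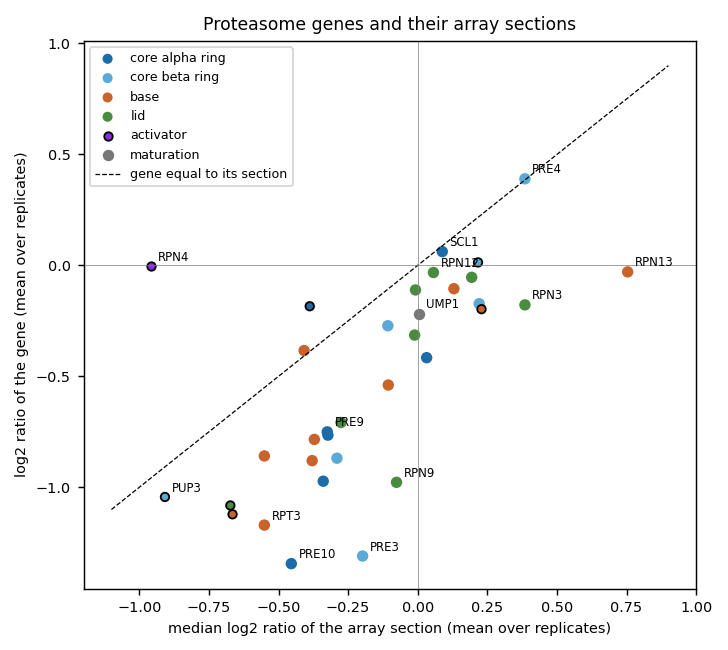
Mean log2 ratio of each proteasome gene (y axis) against the median log2 ratio of its array section (x axis), both averaged over replicates; small black-rimmed points have 2 replicates, and the dashed line marks a gene equal to its section. The section medians run from -0.96 to 0.75, genes in low sections lie lower, and RPN4, with a mean of 0.00, has the lowest section.

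The mean log2 ratio of the 27 members was higher where their section median was higher (r = 0.782, a description over genes that share arrays and, for some, sections), and over all genes r was 0.595. Over genes with at least 2 replicates, 30 of the 34 members had a centred mean below 0 (50.8% of 4956 genes), and RPT5, PRE4, PRE8 and RPN4 did not. Across replicates, the 27 members' values in replicates 2 and 3 correlated at r = 0.683, and those of replicate 1 at -0.108 with replicate 2 and -0.0435 with replicate 3. After centring the same correlations were 0.386, 0.0882 and 0.0666. Over all genes tested, replicates 2 and 3 correlated at 0.559 as deposited and 0.458 centred, so the members' values for this pair were near those of all genes.

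RPN4, the activator, lay near 0 as deposited, within the range of the subunit genes. It had no value in replicate 1, read -0.39 in replicate 2 and 0.38 in replicate 3, and averaged 0.00 ± 0.54 (SD, n = 2; adjusted p = 0.9996 over the 4956 genes with at least 2 replicates). Its replicates were on opposite sides of 0, and within replicate 2 the scans read -0.72 with high and -0.06 with low power. The section of RPN4 lay at -0.66 and -1.25 in replicates 2 and 3. Averaged over the replicates with a value, it was the lowest of any member, but for RPN4 that average lacks replicate 1. In replicate 2 other sections were lower, such as that of PRE6 and PRE9 at -1.17 and that of PUP3 at -0.93. Relative to its own section RPN4 read 0.28 and 1.63, above 0 in both. In replicate 2 UMP1, RPN12 and PRE8 were higher than RPN4, at 0.77, 0.34 and 0.30. Its centred mean of 0.95 ± 0.96, the highest of the 34 members, did not exceed its spread and came mostly from replicate 3. UMP1, which assists maturation of the core and is degraded when assembly ends, read -0.94, 1.02 and -0.73, with replicate 2 opposite to the others (mean -0.22 ± 1.08; adjusted p = 0.842). The centred mean of UMP1 was -0.22 ± 0.98.

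**Figure D4:**
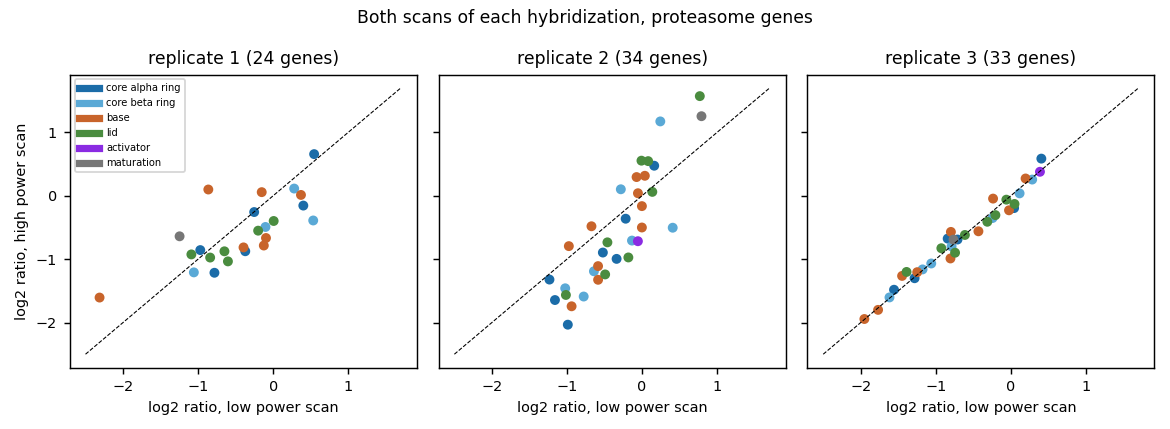
Log2 ratio of each proteasome gene in the high power scan (y axis) against the low power scan (x axis) of the same hybridization, for replicates 1, 2 and 3, with the line of equality dashed. In replicate 3 the points follow the line (r = 0.983, 33 genes), in replicate 2 the high power values spread more widely (SD 0.917 against 0.522, 34 genes), and in replicate 1 they scatter (r = 0.738, 24 genes).

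The scans of a hybridization measured the same RNA, and the proteasome genes differed between them unequally. In replicate 3 the scans of 33 members correlated at r = 0.983, and in replicate 1 those of 24 members at 0.738. In replicate 2 the correlation was 0.866, but the values of the 34 members had an SD of 0.917 with high and 0.522 with low power. Over all named genes the scans of replicates 1, 2 and 3 correlated at 0.778, 0.763 and 0.934. In replicate 2 all named genes also spread more widely with high power, at an SD of 0.952 against 0.615. The largest gap of any member between scans was 1.04, for PRE10 in replicate 2, at -2.03 and -0.99.

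Genes that serve the proteasome without being members were counted from 4 lists over genes with 3 replicates, and 0 of their genes passed after adjustment (0% of all genes). The share of all genes with a mean below 0 was 56.5%. Among assembly chaperones, which build core and base, 3 of 5 genes were above 0, from RPN14 at -0.18 ± 0.34 to NAS6 at 0.14 ± 0.64, with a median of 0.06, and with 2 replicates IRC25 stood at -0.51 and HSM3 at 0.33. Among proteasome-associated proteins 4 of 7 were above 0, with a median of 0.09. The lowest of these was SEM1, a further subunit of the lid, which read -1.03, -0.14 and -1.22, and the highest BLM10, an alternative cap of the core, at 0.37 ± 0.71. With 2 replicates CIC1 was lower, at -1.86 ± 1.47, and DSK2 higher, at 0.69 ± 0.74. Of genes that control RPN4 or its protein 3 of 5 were above 0, from MUB1 at -0.30 ± 1.36 to UBR2 at 1.01 ± 0.83 (adjusted p = 0.326), a ubiquitin ligase that marks Rpn4 for degradation. UBR2 read 1.65, 1.32 and 0.07 in a section at 0.87, and stood at 0.15 ± 0.67 centred. Of the Cdc48 segregase and ubiquitin genes 3 of 4 lay below 0, from CDC48 at -0.66 ± 0.51 to the polyubiquitin gene UBI4 at 0.17 ± 0.31. UFD1 and UFD2, also with 3 replicates, stood at -0.47 and -0.36. The remaining genes of this list had values in replicates 2 and 3 alone, with means of -0.80 for NPL4, -1.13 for OTU1 and -1.20 for SHP1. In those replicates CDC48 read -0.54 and -1.22. After section-centring the medians of the 4 lists were 0.05, -0.0037, -0.13 and -0.20, and that of the 27 members -0.43.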

How the data were processed

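Per the labels, the authors scanned each array at 2 laser powers and entered spots with a flag of 0 into LOWESS; how the images were read and corrected for background is not stated. The deposited values are log2 ratios per spot and scan, with base and direction assumed as stated, centred so that a shift shared by most genes cannot be seen. Of 6912 probes 5513 carry a gene name, updated by Entrez ID to assembly R64. Values were averaged first over the probes of a gene and next over the available scans of a hybridization, and the 3613 genes with 3 replicates were tested against 0 with limma 3.58.1 (lmFit, eBayes; R 4.3.3; 2-sided; 2 residual and 4.43 prior degrees of freedom), after a check on simulated data. Untreated cells have no array of their own, so their spread is not separate. Section-centring used sections with at least 5 values. The members, lists and section-centring were chosen with earlier results of these data known. By the rule for named genes, UMP1, RPN4, and the 4 lowest and the highest of each ring, base and lid have every replicate printed, others were added to complete the account, and from each further list the lowest and highest. With 3 replicates an exact 2-sided permutation test cannot go below p = 0.25, so none was used. Alternatives were each scan power, a replicate block over 6 scans, other centring, other filters, leave-outs and other forms of the test. Promoter sequences were not analysed here.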

Additional observations from a re-analysis of the deposited data

How the results depend on the processing

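Across the alternatives that kept all 3 replicates, 0 genes passed the adjusted threshold, also with a replicate block over the 6 scans, array weights, a robust prior or an unmoderated statistic. A threshold of 0.1 was added after seeing the data for all fits but that of the deposited values, where 0 of 3613 genes passed it. With the replicate block 55 of 3613 genes passed in either direction, and 1 of 27 members, PRE3. In the low power scans alone 57 of 2163 genes passed, and 3 of 23 members, PRE3, PRE10 and RPT3. With array weights 350 of 3613 genes and 9 of 27 members passed, and after the loess 6 genes and 0 members. Without replicate 1 as deposited, 592 of 3613 genes and 11 of 27 members passed 0.1. At the threshold of 0.05, leaving out a replicate moved the count as deposited between 0 and 191 of 3613 genes. Replicates 2 and 3 alone over genes with a value in both gave 77 of 4790. Section-centring without replicates 1, 2 and 3 in turn gave 26, 0 and 141 of 3613 genes at 0.05. Of 27 members 1 was among the 141, PRE3 at -1.25 (adjusted p = 0.0356), whose replicate 1 value includes a scan left uncentred. The members' median stayed below 0 in the 17 alternatives for which it was taken, and so did those of core, base and lid. The median over all genes tested was itself -0.09 as deposited, and without replicate 3 the lid median was -0.050. The members' median was -0.60 in the low power scans alone, and -0.63 to -0.27 over the leave-outs. The core median ranged from -1.0 without replicate 1 to -0.40 without replicate 3 as deposited. It was -0.44 after section-centring, -0.38 after section-centring without replicate 3 and -0.41 after section-centring over genes in at least 2 replicates. The base median was -0.29 after section-centring without replicate 3, and the lid median ranged over the leave-outs from -0.63 to -0.050. The order of core and lid turned with the replicates used, and that of core and base also with the gene filter. Core minus base ranged from -0.37 without replicate 1 to 0.37 without replicate 2, and core minus lid from -0.72 to 0.20 in the same leave-outs. Core minus base was also above 0 over genes in at least 2 replicates, at 0.079, and over genes in both scans of all 3 replicates, at 0.019. These differences were taken between medians of the genes' means over replicates, and as deposited core minus lid was -0.57 and base minus lid -0.48. Core minus base was below 0 in 9 of 13 alternatives, core minus lid in 12 of 13, and base minus lid in 13 of 13, the last from -0.54 to -0.12. The alternatives reuse the same 3 arrays, and from the medians of replicate 1 alone base minus lid was 0.38. Some genes changed sign, among them RPT6 and RPT5 with deposited means of -0.54 and -0.38, and the cause was not tested. After section-centring SCL1 was at -0.026, RPT5 at 0.024, PRE8 at 0.20, PUP1 at -0.20 and RPN4 at 0.95, and after a two-dimensional loess over the same positions SCL1 was at -0.16, PRE4 at -0.040, UMP1 at 0.024, PRE8 at 0.45, PUP1 at -0.38 and RPN4 at 0.69. In the high power scans alone PUP1 was at -0.23 and RPN12 at 0.11, in the low power scans RPN5 at 0.027, and with each scan centred on its median RPN13 at 0.050, RPN5 at 0.0034 and RPN12 at 0.025. Over the leave-outs as deposited SCL1 ranged from -0.15 to 0.41, RPT4 from -0.25 to 0.091, RPT6 from -0.93 to 0.17, RPN13 from -0.13 to 0.023, RPN3 from -0.40 to 0.11, RPN5 from -0.13 to 0.018, RPN11 from -0.47 to 0.12, RPN12 from -0.63 to 0.46 and UMP1 from -0.84 to 0.15. The other 18 members with 3 replicates kept their sign in every leave-out as deposited. How bright a spot was is not known from ratios alone, so signal over background could not be set beside any value.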
